A study of Homo sapiens with 6 samples.

Results

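The suppressors of cytokine signalling (SOCS) are a family of intracellular proteins that bind activated cytokine receptors or their Janus kinases (JAKs), and SOCS1 to SOCS7 together with CISH make up its 8 coding genes. They were followed here with 2 noncoding neighbours, SOCS2-AS1, which is read from the strand opposite SOCS2, and SOCS3-DT, which is read divergently from SOCS3. All 10 genes were found by Ensembl identifier among the 61541 genes of each count table, and together they held between 0.00845% and 0.0379% of the counts of a library. The list was chosen by family membership and, for the noncoding genes, by position, and it was selected on the measured CPM difference between treated and untreated cells, which was already known. The values of these genes for that contrast are a description and not a test.

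The cells were RCC4, an established human clear cell renal carcinoma line that lacks functional VHL. Gene expression was measured in 3 cultures left untreated and in 3 given interferon gamma (IFNγ, 1000 U/mL) plus tumour necrosis factor (TNF, 25 ng/mL) over 24 h. Both cytokines were always given together, so neither can be read alone, and every library comes from the same line, with 3 flasks to each biological replicate. Poly(A) RNA was read as native molecules by direct RNA nanopore sequencing on a separate flow cell for each library, which gives about 1 read per RNA molecule, starting from its 3′ end.

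A cytokine receptor activates JAKs, which phosphorylate STAT transcription factors. STATs then switch on target genes that include SOCS genes, and the SOCS proteins feed back on the receptor. Each carries an SH2 domain, which recognises phosphorylated tyrosine, and a C-terminal SOCS box, which recruits elongins B and C and cullin 5 into a ubiquitin ligase. SOCS1 and SOCS3 also have a short kinase inhibitory region that blocks JAKs directly. SOCS1 is the main brake on IFNγ signalling and SOCS3 on signalling through gp130, the shared receptor of the interleukin-6 cytokines. CISH and SOCS2 are known from STAT5 signalling downstream of growth hormone, prolactin and erythropoietin. SOCS4 to SOCS7 are larger proteins with long N-terminal regions, linked mainly to receptor tyrosine kinases.

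Library totals ran from 3626000 to 4406296 counts, and 14798 to 15604 genes had at least 1 count. Levels are given in CPM, which are TMM-normalised counts on the scale of a shared library size. All 8 markers of renal epithelium looked at were present in every library, with summed levels of 1991 to 3173 CPM without and 2075 to 3639 CPM with cytokines. The leukocyte and endothelial markers PTPRC, LYZ, CD3E, TYROBP, PECAM1, VWF, CDH5 and CLDN5 had 0 counts in all libraries, and CD14 had at most 0.287 CPM. Of 5 fibroblast markers COL1A1 alone had counts. The 8 pseudogenes of SOCS2, SOCS5 and SOCS6 had 0 counts in all libraries. Same-strand exons of other genes cover 2.14% of the exonic bases of SOCS5 and none of those of the other members. Untreated replicate 3 stood apart from the other untreated libraries: over all genes its chi-square against them, divided by its degrees of freedom, was 24.7 and 21.5, while untreated replicates 1 and 2 gave 3.48. Without it, the log2 fold change of treated over untreated cells was 4.76 for SOCS1, 3.68 for SOCS3, 1.37 for CISH, -1.68 for SOCS2 and -3.03 for SOCS2-AS1, and the values with it follow under each gene.

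Promoter stretches are shown first for SOCS1, CISH and SOCS3-DT. These genes were picked for being higher in treated cells and for a motif in their windows, so the choice shows no link between them. STAT dimers bind the gamma activated site, written TTCNNNGAA, which reads the same on both strands. Interferon regulatory factors bind the interferon-stimulated response element, searched on both strands as GAAANNGAAA. RefSeq (GRCh38.p14) gave 8 promoter windows of 300 bases for 6 of the 10 genes, each with 250 bases before the transcription start and 50 after it. SOCS2, SOCS5, SOCS7 and SOCS2-AS1 had no window, so neither gene called lower in treated cells could be searched. The stretches run 5′ to 3′ on the strand of the gene, end at or before the transcription start and leave out exons of coding genes. Capitals mark the interferon-stimulated response element in SOCS1 (chr16:11256205-11256454, minus strand) and the gamma activated sites in CISH (chr3:50611832-50611907, minus strand) and SOCS3-DT (chr17:78360198-78360447, plus strand).
SOCS1: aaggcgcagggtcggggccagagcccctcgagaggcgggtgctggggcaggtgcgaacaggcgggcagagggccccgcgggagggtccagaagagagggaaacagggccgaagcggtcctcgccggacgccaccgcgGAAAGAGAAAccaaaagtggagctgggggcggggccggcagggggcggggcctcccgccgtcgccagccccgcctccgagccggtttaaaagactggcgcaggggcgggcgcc
CISH: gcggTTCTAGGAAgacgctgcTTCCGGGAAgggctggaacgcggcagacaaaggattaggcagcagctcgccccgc
SOCS3-DT: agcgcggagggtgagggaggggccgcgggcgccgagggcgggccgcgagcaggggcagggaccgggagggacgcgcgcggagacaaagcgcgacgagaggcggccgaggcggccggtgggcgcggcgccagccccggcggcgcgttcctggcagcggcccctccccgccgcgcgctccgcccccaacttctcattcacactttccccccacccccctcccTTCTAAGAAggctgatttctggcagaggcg

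The SOCS1 window held 1 interferon-stimulated response element, GAAAGAGAAA, which begins 113 bases before the start. That motif was present in 3.57% of all 35116 promoter windows of this length. The CISH window held 4 gamma activated sites. The pair in capitals, TTCTAGGAA and TTCCGGGAA, begin 129 and 112 bases before the start. The other pair, TTCCTGGAA and TTCTTGGAA, begin 241 and 230 bases before it, in bases that are also exonic in MAPKAPK3 on the opposite strand. Of the 35116 windows, 7 (0.0199%) held 4 or more gamma activated sites. The cut of 4 is the number found in CISH, whose window is among those 7, so this share is not a test. A gamma activated site was present in 7.66% of all windows. The SOCS3-DT window nearest the annotated start held 1 such site, TTCTAAGAA, which begins 30 bases before the RefSeq start and lies within the first bases of the gene as the deposited tables place it. A kappa B site, bound by the NF-kappaB factors that TNF activates, was searched by its consensus on both strands and found in 11.3% of all windows. Among the family it occurred in the SOCS1 window, as GGGGCCTCCC at 67 bases before the start, and in the second window of SOCS3-DT. None of the 3 motifs was found in the windows of SOCS3, SOCS4 or SOCS6. The SOCS3 windows, chr17:78359618-78359917 and chr17:78360876-78361175, leave out the bases directly before the SOCS3 start at 78360077. Those bases were searched only from 78360198 on, within the SOCS3-DT window nearest the annotated start, so the SOCS3 promoter cannot be said to lack the motifs. These matches describe letters within short windows and do not show binding.

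SOCS1, which inhibits JAK1, JAK2 and TYK2, was scarce in untreated cells and, with SOCS3, 1 of the 2 most abundant of the family in treated cells. SOCS1 (ENSG00000185338; chromosome 16, 11254417 to 11256204, minus strand of GRCh38) was counted at 5.47, 5.40 and 1.81 CPM in untreated replicates 1, 2 and 3. With cytokines it was at 138.5, 131.2 and 177.7 CPM, in the same order. All 3 treated libraries lay far above the untreated ones, and untreated replicate 3 was the lowest of all. The means were 4.23 ± 2.09 and 149.1 ± 25.0 CPM (SD, n = 3 each), or 35.5-fold, which is a log2 fold change (log2FC, treated over untreated) of 5.15 with SE 0.36. Since RNA came from whole cultures, more RNA in every cell and more cells with the RNA cannot be told apart for this or any other gene here.

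SOCS3, the inhibitor that binds gp130 and JAKs together, was the second gene of this kind. SOCS3 (ENSG00000184557; chromosome 17, 78356778 to 78360077, minus strand) was counted at 11.7, 9.26 and 6.35 CPM in the untreated replicates and at 134.2, 106.9 and 164.1 CPM in the treated ones, each in the order 1 to 3. The groups did not overlap, and in both SOCS1 and SOCS3 untreated replicate 3 was lowest while treated replicates 2 and 3 were lowest and highest of the treated. The SOCS3 means were 9.11 ± 2.69 and 135.1 ± 28.6 CPM (SD, n = 3 each), or 14.8-fold (log2FC 3.89, SE 0.28). The balance between both inhibitors also differed. For each SOCS3 read there were 0.467, 0.583 and 0.286 SOCS1 reads in the untreated libraries and 1.03, 1.23 and 1.08 in the treated ones.

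SOCS3-DT, the divergent noncoding RNA, was all but undetected in untreated cells. SOCS3-DT (ENSG00000266970; chromosome 17, 78360417 to 78373911, plus strand) starts 340 bases from the start of SOCS3 and runs the other way. It had 0, 1 and 1 counts in untreated replicates 1, 2 and 3 and 31, 35 and 31 counts in the treated replicates, or 8.91, 7.86 and 8.80 CPM. Treated libraries stood at 8.52 ± 0.575 CPM (SD, n = 3), 11.4-fold above the level of 3 counts per library. That level is the limit that a count of 0 allows. For the untreated libraries with 1 count it is a reference level and not a limit. It covers counting error alone. The fitted fold change of SOCS3-DT depends on the prior count and is not given as its size, and the gene passed the filter on low counts through its treated libraries. For every 100 SOCS3 reads, treated libraries held 6.64, 7.35 and 5.36 SOCS3-DT reads. The exons of SOCS3 and SOCS3-DT share no bases, and counting was strand-specific, so reads of one are not counted for the other.

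CISH, a STAT5 target whose protein competes for receptor docking sites, was higher in treated cells by a smaller factor. CISH (ENSG00000114737; chromosome 3, 50606489 to 50611774, minus strand) was counted at 3.91, 5.40 and 6.12 CPM in the untreated and at 10.6, 12.1 and 13.6 CPM in the treated libraries, replicates 1 to 3 in order. The groups did not overlap, though they rest on 15, 21 and 27 counts against 37, 54 and 48. The means were 5.14 ± 1.13 and 12.1 ± 1.5 CPM (SD, n = 3 each), or 2.34-fold (log2FC 1.23, SE 0.30). In the fit over all genes CISH lay past the threshold, and not when any 1 library other than untreated replicate 3 was left out, where its log2FC was 1.09 to 1.32, nor when libraries were scaled to their totals alone (1.12).

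SOCS2, which targets the growth hormone receptor for degradation, went the opposite way. SOCS2 (ENSG00000120833; chromosome 12, 93569814 to 93583487, plus strand) was counted at 30.2, 30.9 and 24.5 CPM in the untreated replicates and at 7.18, 10.3 and 11.1 CPM in the treated ones, each in the order 1 to 3. Every treated library was below every untreated one. The means were 28.5 ± 3.52 and 9.53 ± 2.06 CPM (SD, n = 3 each), or 2.98-fold lower (log2FC -1.57, SE 0.25).

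SOCS2-AS1, the antisense RNA of that locus, was lower as well. SOCS2-AS1 (ENSG00000246985; chromosome 12, 93542022 to 93571768, minus strand) starts within SOCS2, 1954 bases past the SOCS2 start, and runs back across it. It was counted at 18.5, 32.7 and 12 CPM in the untreated replicates and at 4.31, 3.59 and 1.42 CPM in the treated ones, each in the order 1 to 3. The groups did not overlap, but untreated libraries spread widely, with replicate 2 highest. The means were 21.1 ± 10.6 and 3.11 ± 1.51 CPM (SD, n = 3 each), or 6.67-fold lower (log2FC -2.74, SE 0.49). The exons of SOCS2 and SOCS2-AS1 share 277 bases on opposite strands, 4.28% of the exonic bases of SOCS2 and 6.24% of those of SOCS2-AS1. There were 1.63, 0.945 and 2.04 SOCS2 reads per SOCS2-AS1 read in the untreated libraries and 1.67, 2.88 and 7.80 in the treated ones, so this ratio overlapped between groups.

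**Figure D1:**
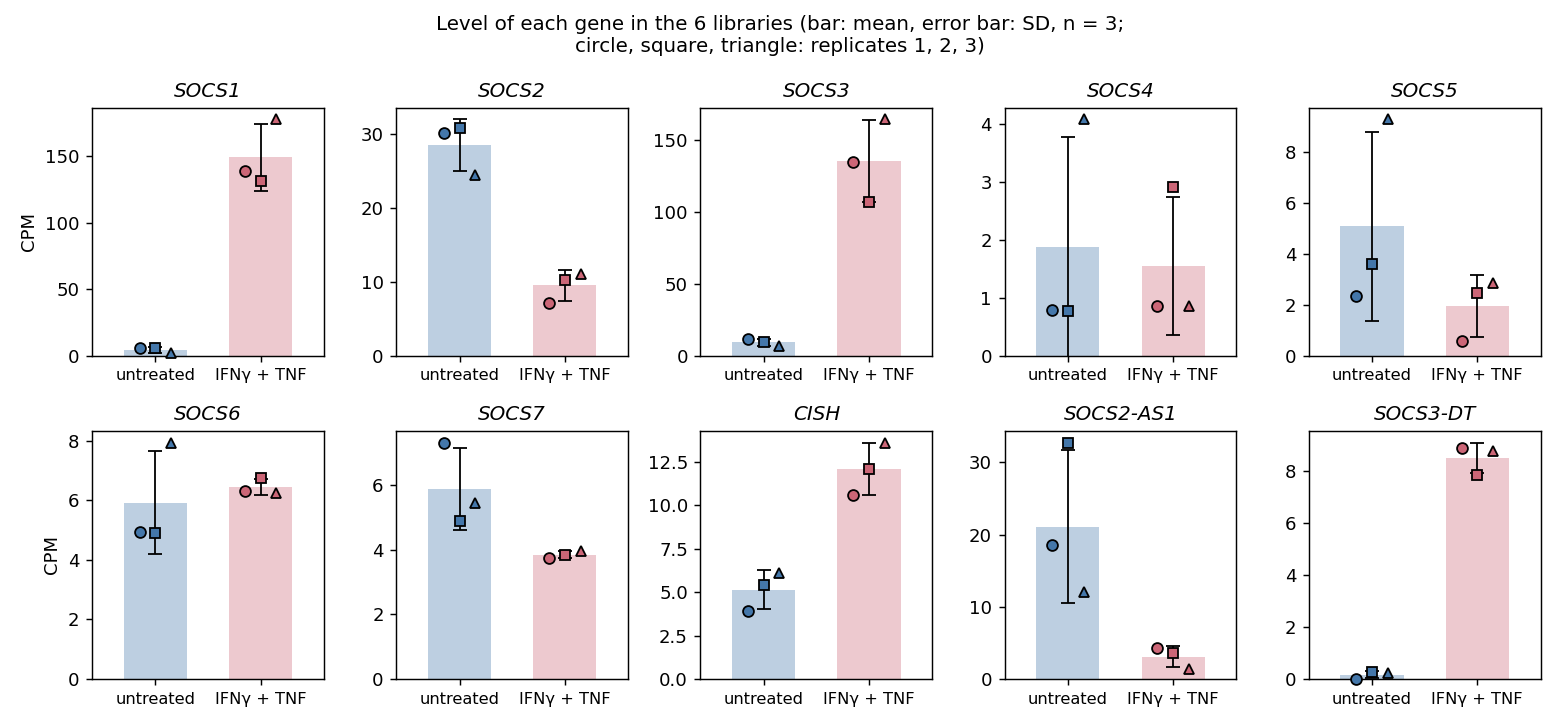
Level of each of the 10 genes in CPM (vertical axes from 0, a different range in each panel) in untreated and IFNγ + TNF libraries, with bars for the mean, error bars for the SD and 1 point per replicate (n = 3 each). SOCS1, SOCS3, SOCS3-DT and CISH have all treated points above the untreated ones, SOCS2, SOCS2-AS1 and SOCS7 have them below, and SOCS4, SOCS5 and SOCS6 overlap.

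The larger relatives SOCS4 to SOCS7 were scarce in both groups and showed no such separation, with 1 exception. SOCS6 (chromosome 18), which binds the receptor KIT, stood at 5.92 ± 1.74 CPM without and 6.44 ± 0.266 CPM with cytokines (SD, n = 3 each, log2FC 0.11, SE 0.33). SOCS7 (chromosome 17), an adaptor linked to insulin receptor substrates, was at 7.30, 4.89 and 5.44 CPM in untreated and 3.74, 3.82 and 3.97 CPM in treated libraries. Its groups did not overlap, but SOCS7 (log2FC -0.61, SE 0.33) did not pass the threshold of the fit over all genes.

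SOCS4 and SOCS5, both linked to degradation of the epidermal growth factor receptor, were uneven among untreated libraries. SOCS5 (chromosome 2) was at 2.34, 3.60 and 9.29 CPM in the untreated replicates and at 0.575, 2.47 and 2.84 CPM in the treated ones, each in the order 1 to 3 (log2FC -1.36, SE 0.65). Without untreated replicate 3 the SOCS5 log2FC was -0.58. SOCS4 (chromosome 14) had 3, 3 and 18 counts in untreated and 3, 13 and 3 counts in treated libraries, too few to pass the filter. Untreated replicate 3 was thus the highest library for SOCS4 and SOCS5, and at 7.93 CPM also for SOCS6. Summed over SOCS4 to SOCS7, it held 26.7 CPM, against 14.2 and 15.4 CPM in the other untreated libraries and 11.5 to 15.9 CPM in the treated ones. That library also had the longest genes on average, with a count-weighted exonic length of 4484 bases against 4204 to 4376 bases in the other 5. SOCS4, SOCS5 and SOCS6 have 7044, 7490 and 5839 exonic bases. SOCS2, with 6477, and SOCS7, with 9005, were not highest in that library, and the part of length in these values was not tested.

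Of the 10 genes, 9 passed the filter on low counts. In edgeR's quasi-likelihood test over all 10067 genes, 4 of them (SOCS1, SOCS3, CISH and SOCS3-DT) were past an adjusted p of 0.05 and higher, where 5.58% of all genes tested were. The 2 that were past it and lower were SOCS2 and SOCS2-AS1, where 2.55% of all genes were. Groups did not overlap in CPM for 7 of the 10 genes, against 25.9% of all genes tested. Nothing is read from these counts, since the contrast was known when the list was drawn up.

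Counted together, the 8 coding genes held nearly the same share of reads in the 3 untreated libraries. Their summed level was 66.7, 65.1 and 65.5 CPM there and 302.0, 276.5 and 380.4 CPM in the treated libraries, 4.86-fold higher by the ratio of the means. The make-up of this sum differed as well. SOCS1 and SOCS3 supplied 20.3% ± 6.93 of the family's reads without and 88.8% ± 2.32 with cytokines (SD, n = 3 each). SOCS2 supplied 43.4% ± 5.27 and 3.01% ± 0.685. Leaving out SOCS1 and SOCS3, the other genes summed to 49.5, 50.4 and 57.3 CPM in untreated and 29.3, 38.4 and 38.6 CPM in treated libraries, without overlap and lower in the treated. SOCS2 carried that difference: the 5 genes left without it summed to 19.3, 19.6 and 32.9 CPM in untreated and 22.1, 28.1 and 27.5 CPM in treated libraries, which overlap.

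**Figure D2:**
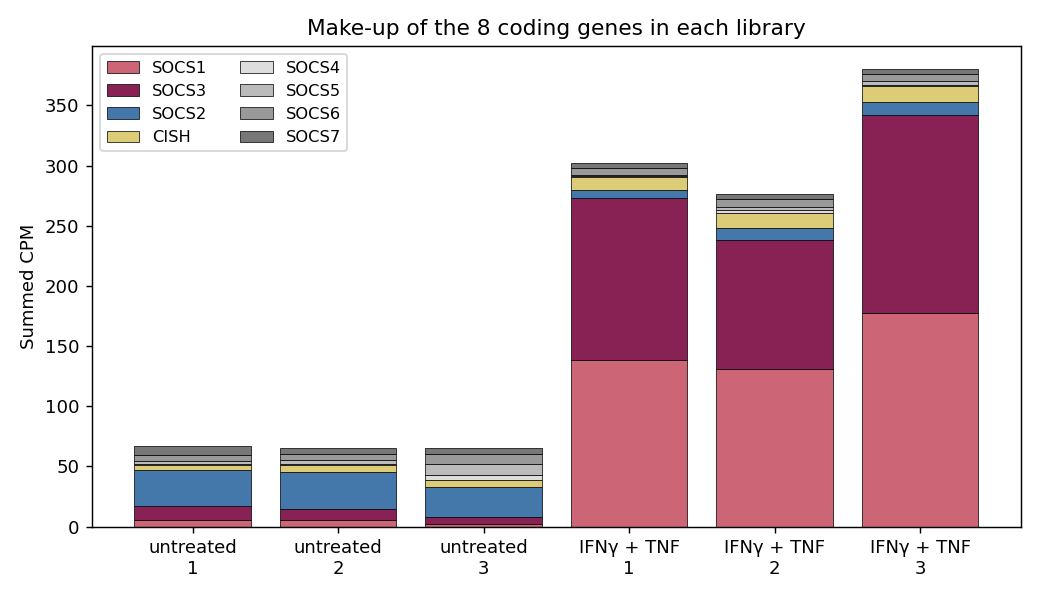
Summed CPM of the 8 coding genes (vertical axis) in each of the 6 libraries, with 1 colour per gene. SOCS1 and SOCS3 fill 86.1% to 90.3% of the treated columns and 12.5% to 25.8% of the untreated ones, where SOCS2 is the largest single part.

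Levels of different genes were compared per kilobase of exonic length. In untreated cells the order by mean was SOCS2-AS1, SOCS2, SOCS3, SOCS1, CISH, SOCS6, SOCS5, SOCS7, SOCS4 and SOCS3-DT. It ran from 4.74 ± 2.38 CPM per kb for SOCS2-AS1 and 4.40 ± 0.544 for SOCS2 to 0.0934 ± 0.0814 for SOCS3-DT (SD, n = 3 each). No gene in that order was separated from the next by its 3 libraries, so the ranks of neighbours are not resolved. Without untreated replicate 3, 6 of the 9 neighbouring pairs were separated. In treated cells SOCS1 led with 83.4 ± 14.0 CPM per kb, followed by SOCS3 with 49.4 ± 10.5 and SOCS3-DT with 4.94 ± 0.333 (SD, n = 3 each). CISH followed at 2.40 ± 0.296 CPM per kb, and then came SOCS2, SOCS6, SOCS2-AS1, SOCS7, SOCS5 and SOCS4. There 6 of the 9 neighbouring pairs did not overlap. The pairs that did were SOCS2 with SOCS6, SOCS2-AS1 with SOCS7, and SOCS5 with SOCS4. Because a direct RNA read stands for about 1 molecule whatever its length, division by length lowers long genes such as SOCS2, and the order by CPM alone was different. By CPM the treated order was SOCS1, SOCS3, CISH, SOCS2, SOCS3-DT, SOCS6, SOCS7, SOCS2-AS1, SOCS5 and SOCS4. SOCS1 and SOCS3 then overlapped, CISH at 12.1 and SOCS2 at 9.53 CPM stood above SOCS3-DT at 8.52 CPM, and 3 of the 9 neighbouring pairs were separated. The untreated order by CPM was SOCS2, SOCS2-AS1, SOCS3, SOCS6, SOCS7, CISH, SOCS5, SOCS1, SOCS4 and SOCS3-DT, with 2 pairs separated, so SOCS1, at a mean of 4.23 CPM, then came after SOCS6, SOCS7, CISH and SOCS5.

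**Figure D3:**
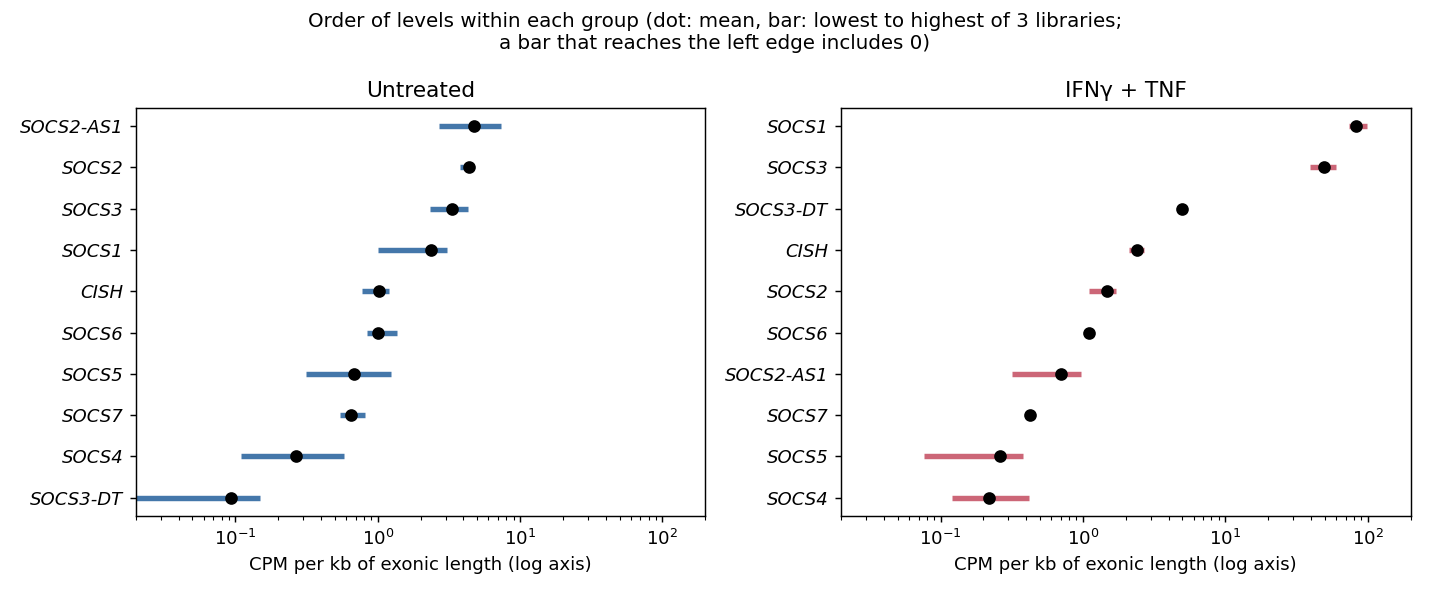
Order of the 10 genes by level in untreated and treated libraries, in CPM per kb of exonic length on a log axis, with dots for the mean and bars from the lowest to the highest of 3 libraries. SOCS1 and SOCS3 stand at 83.4 and 49.4 CPM per kb in treated cells, apart from each other and from the rest, while in untreated cells the bars of neighbours overlap throughout. Without division by length, treated SOCS1 and SOCS3 overlap.

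The rest of the pathway was read from lists put together by known function, none of which holds a family member. Among 26 cytokine receptors and JAKs, 13 were tested, 4 rose and 0 fell, or 30.8% called against 8.14% of all genes. The median log2FC of the tested genes was 0.48, against -0.03 over all genes. IL15RA, the alpha chain of the interleukin-15 receptor, rose from 7.55 ± 1.10 to 82.2 ± 18.6 CPM (SD, n = 3 each, log2FC 3.44, SE 0.25, edgeR adjusted p 4.39e-05). ENSG00000232807 shares 30.2% of the last 500 exonic bases of IL15RA on the same strand, so the IL15RA count is uncertain. IL7R and IL4R, receptors of interleukins 7 and 4, rose with log2FCs of 2.48 and 1.63 (edgeR adjusted p 0.00323 and 0.003). The fourth was IFNAR2, a chain of the type I interferon receptor named after its values were seen (log2FC 1.96, SE 0.40, edgeR adjusted p 0.016). Its exons are shared with the readthrough gene IFNAR2-IL10RB over 41.4% of their bases, which makes its count uncertain. IFNAR2 was not past the threshold without untreated replicate 2 (0.0952), treated replicate 2 (0.0642) or treated replicate 3 (0.0611).

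The IFNγ receptor and JAK1, which signals from it and is inhibited by SOCS1, did not pass the test. IFNGR1 and IFNGR2, the receptor chains, had log2FCs of 0.27 and 0.61. The IFNGR2 groups did not overlap (56.0 to 66.1 CPM without and 74.4 to 117.5 CPM with cytokines), as in 25.9% of all genes tested. JAK1 had -0.19 (SE 0.35), at 105.9 ± 58.4 CPM without and 93.2 ± 17.2 CPM with cytokines (SD, n = 3 each). Its sign rests on untreated replicate 3, at 173.4 CPM. The other untreated libraries held 73.7 and 70.8 CPM of JAK1, and the treated ones 76.7 to 111.0 CPM. JAK2 did not pass the filter, with 1, 3 and 3 counts in untreated and 2, 20 and 15 counts in treated libraries. Its means were 0.571 and 3.11 CPM, and its groups overlapped. Without treated replicate 1, its lowest treated library, JAK2 passed the filter and was called higher (log2FC 2.87, edgeR adjusted p 0.0258). That call rests on leaving out the treated library at the untreated level, so nothing is read from it. The receptors best known for SOCS2 and CISH were near the limit of detection. GHR, the growth hormone receptor, and PRLR, the prolactin receptor, stood at 0.259 and 0.0755 CPM in untreated cells, below the 0.674 to 0.862 CPM to which 3 counts correspond, whereas EPOR, the erythropoietin receptor, was at 10.8 CPM without and 14.1 CPM with cytokines.

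STATs, the transcription factors that JAKs activate, are given gene by gene. STAT2, a part of the type I interferon response, rose from 21.7 ± 15.6 to 132.8 ± 28.6 CPM (log2FC 2.60, SE 0.44, edgeR adjusted p 0.00612). Untreated replicate 3 held 39.7 CPM of STAT2, against 13.3 and 12.1 CPM in untreated replicates 1 and 2, and stayed below the lowest treated library at 100.2 CPM. STAT3, which acts downstream of gp130, rose from 47.6 ± 6.63 to 107.0 ± 6.14 CPM (log2FC 1.17, SE 0.18, edgeR adjusted p 0.00416). STAT6 had a log2FC of 0.98 (edgeR adjusted p 0.00874), which was not past the threshold without untreated replicate 2 (0.0664). STAT5B did not pass, at 25.6 ± 2.28 CPM without and 17.8 ± 3.28 CPM with cytokines (SD, n = 3 each; log2FC -0.52, SE 0.23). STAT5A had at most 0.190 CPM as a group mean.

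The list of ligase partners of the SOCS box also holds CUL2 and VHL, which belong to a related ligase. Of its 11 genes, 8 were tested, and edgeR called 0 higher and 0 lower, where 8.14% of all genes were called. With so few genes tested, nothing is read from the lack of calls. An unadjusted p under 0.05 was reached by 1 higher and 0 lower. The gene behind that 1, VHL, was at 228.3 ± 86.6 CPM without and 495.7 ± 168.3 CPM with cytokines (SD, n = 3 each), with a log2FC of 1.12. Replicate 3 was its lowest library in both groups, at 128.3 CPM without and 320.8 CPM with cytokines. DESeq2 called VHL higher (adjusted p 0.0138), as it called no other gene of the list, whereas limma voom called 0. VHL is the substrate receptor of the related cullin 2 ligase, and this line lacks functional VHL. ELOB and ELOC, the elongins, had log2FCs of -0.24 and 0.01, at 755 ± 95.8 and 167.9 ± 16.1 CPM in untreated libraries (SD, n = 3 each). CUL5 did not pass the filter, with 2.66 ± 2.82 CPM without and 1.15 ± 0.867 CPM with cytokines.

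Other proteins with a SOCS box gave 14 tested genes of 29, with 1 that rose and 1 that fell (14.3% called, against 8.14% of all genes). SPSB1, whose protein targets the inducible nitric oxide synthase, rose from 8.0 ± 2.90 to 20.7 ± 5.44 CPM (log2FC 1.36, SE 0.33, edgeR adjusted p 0.0372). It was not past the threshold without untreated replicate 1 (0.0808) or 2 (0.151) or treated replicate 1 (0.125) or 3 (0.121), or with library totals alone (0.0726). RAB40B, a small GTPase with a SOCS box, fell from 14.2 ± 3.80 to 3.23 ± 1.2 CPM (log2FC -2.11, SE 0.37, edgeR adjusted p 0.00746). WSB2, the most abundant of them at 91.5 CPM over all libraries, had a log2FC of -0.32.

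Inhibitors of JAK-STAT signalling outside the family had 12 of 13 members tested, with 1 that rose and 0 that fell. The share called was 8.33%, near the 8.14% of all genes, and the median log2FC was -0.05. At an unadjusted p under 0.05 edgeR had 2 higher and 1 lower. USP18, which removes ISG15 and blocks the type I interferon receptor, rose from 1.92 ± 0.507 to 84.5 ± 39.8 CPM (SD, n = 3 each, log2FC 5.45, SE 0.43, edgeR adjusted p 7.28e-05). The others included the PIAS proteins, which bind STATs in the nucleus, with log2FCs of -0.09 for PIAS1, -1.19 for PIAS2, 0.15 for PIAS3 and -0.04 for PIAS4. The phosphatase genes PTPN1, PTPN2, PTPN6 and PTPN11 had log2FCs of 0.32, 0.48, -0.05 and -0.74. SH2B3, an adaptor that restrains JAK2, had 0.96 and passed when untreated replicate 1 was left out (edgeR adjusted p 0.0138).

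Genes known as targets of STAT3 and STAT5 had 15 of 19 members tested, of which 4 rose and 0 fell. The share called was 26.7%, against 8.14% of all genes, and the median log2FC was 0.67. CEBPB and JUNB, both transcription factors, rose from 70.6 ± 5.66 to 414.2 ± 146 CPM and from 69.6 ± 14.5 to 390.8 ± 67.8 CPM (edgeR adjusted p 0.000352 and 0.000151). IL6, the interleukin-6 gene, rose from 20.4 ± 6.65 to 85.6 ± 3.16 CPM (log2FC 2.08, SE 0.26, edgeR adjusted p 0.00126), and BCL3 had a log2FC of 1.44. TIMP1, the most abundant of them at 731.1 CPM over all libraries, had 0.25. PIM1, a kinase gene activated by STAT5, had 0.67 and did not pass (edgeR adjusted p 0.157). CEBPD (log2FC 1.45) and MCL1 (0.85) lay just outside the threshold (edgeR adjusted p 0.0552 and 0.0605), and both were called higher without untreated replicate 3 (0.000196 and 0.0136) and in DESeq2 (adjusted p 0.00181 and 0.0173). ADAMTSL4-AS1 shares 65.6% of the last 500 exonic bases of MCL1 on the same strand, so the MCL1 count is uncertain. Several of these genes also respond to NF-kappaB, which TNF activates.

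Of 11 genes for known targets of SOCS proteins, mostly receptors and adaptors, 7 were tested, 1 rose and 0 fell. The share called was 14.3%, against 8.14% of all genes. At an unadjusted p under 0.05 edgeR had 1 higher and 1 lower. RELA, the NF-kappaB subunit p65, rose from 100.9 ± 22.7 to 313.0 ± 63.9 CPM (log2FC 1.63, SE 0.24, edgeR adjusted p 0.003). IRS1 and IRS2, the insulin receptor substrates, had log2FCs of 0.15 and -0.42, and EGFR had -0.48. IRS2 and EGFR were highest in untreated replicate 3, at 78.2 and 77.5 CPM. All other libraries held 25.5 to 41.2 CPM of IRS2 and 30.7 to 40.7 CPM of EGFR. KIT had 0 counts in all 6 libraries.

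**Figure D4:**
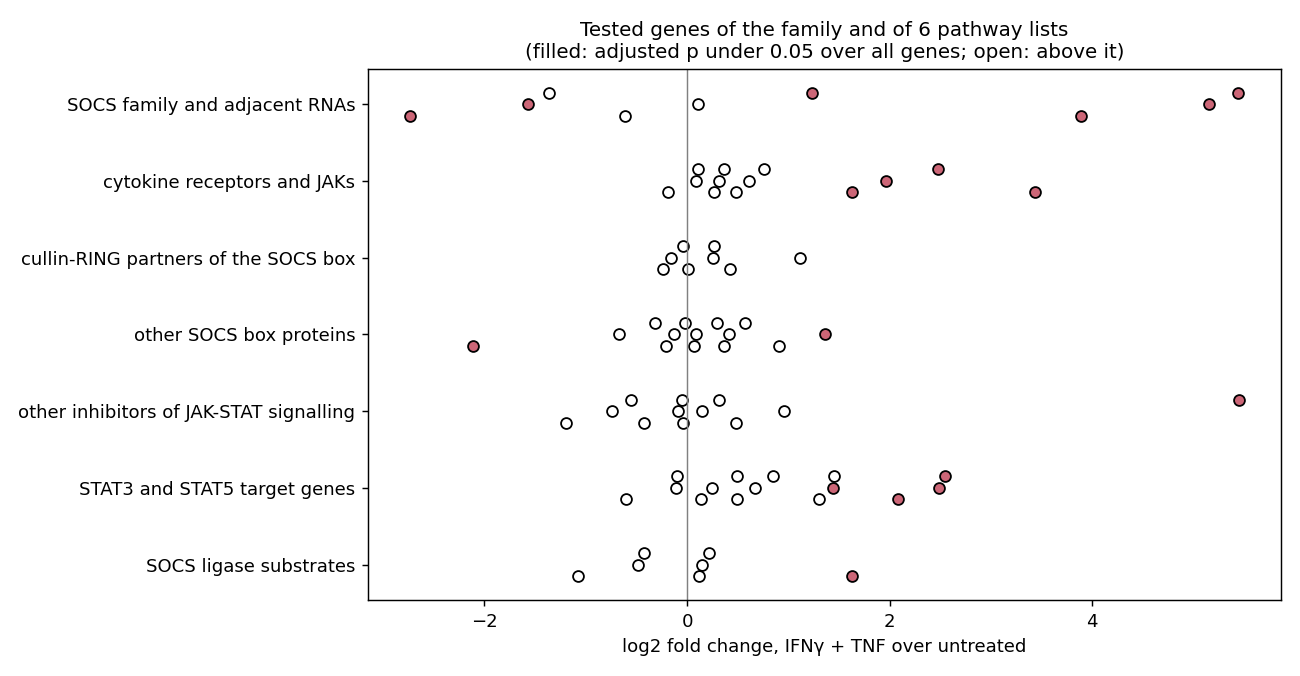
Log2 fold change of treated over untreated cells (horizontal axis) for every tested gene of the SOCS family and of 6 pathway lists (rows), with filled points for an adjusted p under 0.05 over all genes and open points for the others. The 4 filled receptors lie right of 0, the ligase partners of the SOCS box have no filled point, and the family spans -2.74 to 5.44, where the highest point is SOCS3-DT, whose fitted value depends on the prior count.

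Genes within 100 kb of the family members numbered 59, of which 32 had a count and 18 were tested. Of these 18, 2 rose and 0 fell in edgeR (11.1% called, near the 8.14% of all genes), with 1 lower at an unadjusted p under 0.05. RMI2, whose product acts in DNA repair, spans SOCS1 on the opposite strand (chromosome 16, 11249619 to 11381662) and rose from 28.7 ± 8.90 to 88.0 ± 7.74 CPM (log2FC 1.62, SE 0.25, edgeR adjusted p 0.00413). SOCS1 and RMI2 have no exonic bases in common. PGS1, which encodes a phospholipid synthase, begins 4738 bases past the end of SOCS3-DT on the same strand and rose from 28.2 ± 7.94 to 67.7 ± 9.0 CPM (log2FC 1.27, SE 0.25, edgeR adjusted p 0.0144), though it was not past the threshold once treated replicate 3 was left out (0.0726). MAPKAPK3, which starts inside the CISH locus on the other strand, was at 85.1 ± 9.86 CPM without and 69.7 ± 15 CPM with cytokines (SD, n = 3 each), a log2FC of -0.29. CRADD, the nearest tested coding gene past the end of SOCS2, at 93888 bases, had -0.98 (SE 0.28) and did not pass (edgeR adjusted p 0.0661). MRPL42, a coding gene nearer to SOCS2 on its other side, at 53600 bases, had -0.03 (SE 0.36). Without untreated replicate 3, CRADD was called lower (edgeR adjusted p 0.0306) and LGALS3, a neighbour of SOCS4, higher (0.0465).

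Genes of nearest pattern were ranked by the root mean square difference from each member, over the 6 libraries, of log2 CPM set to 0 at the untreated mean. Nearest to SOCS1 were USP18 (0.36), IRF1 (0.43) and, by a distance that rests on the prior count, TNFRSF14, which had 0 counts in all untreated libraries. Nearest to SOCS3 were HLA-F (0.24), OAS3 (0.25) and PSMB9 (0.26), and nearest to CISH were PDE4DIP (0.12), CDC42SE2 (0.13) and SMCO4 (0.13). SOCS2 had RASD2 (0.13), ADRA2C (0.18) and C10orf95-AS1 (0.19) as its closest genes, and SOCS2-AS1 had LINC02901 (0.18), NT5DC2 (0.35) and DOCK2 (0.35). No nearest genes are given for SOCS3-DT, whose distances rest on the prior count. For SOCS5 the closest gene was SYTL2 (0.22), for SOCS6 OTUD7B (0.06) and for SOCS7 TMEM97 (0.07). These distances are a description over 6 libraries of 2 groups.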

How the data were processed

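The authors deposited raw counts of reads for each gene. Per the file headers, featureCounts 2.0.1 counted them in long-read, strand-specific mode on exons of Ensembl release 105 (GRCh38). The submitters' processing notes name minimap2 2.24, SAMtools 1.16 and featureCounts 2.0.0, with hg38, and the design text gives a read quality above 7. Alignment names in the file headers carry the word dmso, which no label mentions. Groups came from sample titles. Symbols came from a name table that held 61369 of 61541 identifiers, and promoters from RefSeq.

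Differential expression used edgeR 4.0.16 in R 4.3.3 (quasi-likelihood F test, TMM, filterByExpr with a minimum count of 10, group as sole term, Benjamini-Hochberg over all genes). Errors (SE) are the absolute log2 fold change over the square root of F. The code was tested on simulated counts. Alternatives were other normalisations and filters, a replicate block, DESeq2 1.42.0, limma 3.58.1 voom and leaving out each library. Members and lists were chosen with earlier results of these data known. Named list genes are the up to 3 called genes with smallest adjusted p in each direction and the most abundant tested gene, and the other list genes were named after their values were seen. No pair of replicates agreed within sampling noise (their chi-square over its degrees of freedom ran from 3.48 to 24.7), and each is 1 sample. A depth of 3626000 to 4406296 counts puts 3 counts at 0.674 to 0.862 CPM. A few items of the lists are not reported here.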

Additional observations from a re-analysis of the deposited data

How the results depend on the processing

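Over 121 alternative values for the 10 genes, 111 kept direction and side of the threshold. CISH did not pass with library totals alone (1.12), and its log2 fold change ran from 1.09 to 1.37 without 1 library. SOCS6 was at -0.0013 with library totals alone and from -0.0024 to 0.38 without 1 library. SOCS4, at -0.23 with all counted genes fitted, ran from -0.62 to 0.03 without 1 library. Without untreated replicate 3 or treated replicate 2 it missed the filter and had no value. SOCS4 had 3 counts in 4 libraries and 18 and 13 in the others, so both depth and the spread between replicates limit it.

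Over all genes, edgeR called 562 higher and 257 lower, 849 and 479 with every gene of at least 1 count, 489 and 363 with library totals alone (median over all genes -0.13 on the log2 scale, against -0.03), and 358 to 733 higher and 96 to 445 lower without 1 library. On the lists, every gene with at least 1 count gave 6 receptors and JAKs higher (IL22RA1 and JAK2 added), 6 STAT3 and STAT5 targets higher (MCL1 and CEBPD added), 1 STAT lower (STAT4), 1 ligase partner higher (VHL), 2 other inhibitors higher (SH2B3 added) and 1 target of SOCS proteins lower (LRP1). Of these, STAT4 had 3, 2 and 21 counts in untreated and 0, 1 and 1 counts in treated libraries, so its call rests largely on untreated replicate 3. IL22RA1 had 0, 1 and 0 counts in untreated and 2, 12 and 5 counts in treated libraries, also near the limit of detection. CEBPD was also called higher with RLE size factors (adjusted p 0.0465), with 1 CPM in 3 libraries (0.0361), in DESeq2 (0.00181) and in limma voom (0.0344), and MCL1 in DESeq2 (0.0173). LRP1 was also called, making 1 lower, with RLE size factors, with 1 CPM in 3 libraries and in DESeq2. DESeq2 also had VHL as 1 higher and, like limma voom, SH2B3 as the second of 2 higher inhibitors. Library totals alone left 0 other SOCS box proteins higher. Without 1 library, these ran from 0 to 1 higher, other inhibitors from 1 to 2 higher, neighbours from 1 to 3 higher and from 0 to 1 lower. Without length scaling, 2 untreated and 3 treated neighbouring levels were separated, and without 1 untreated library 1 to 6. The causes were not tested.

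Same-numbered samples deviated from their group means with correlations of 0.651, -0.0037 and 0.374, so the numbers are not taken as pairs, and not every sample correlated best with its own number. With the replicate number as a block, all genes gave 907 higher and 605 lower. It kept the call of each member, with log2 fold changes of 5.16 for SOCS1, 3.89 for SOCS3, 1.24 for CISH, -1.58 for SOCS2 and -2.75 for SOCS2-AS1. It called 1 ligase partner higher, 2 other inhibitors higher and 1 lower, 7 STAT3 and STAT5 targets higher, 1 target of SOCS proteins lower, and among neighbours 3 higher (LGALS3 added) and 1 lower.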
